A study of Homo sapiens with 14 samples.

Results

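K562 cells in which a catalytically inactive Cas9 was guided to the fetal globin promoters (sgHBG, 3 libraries) were compared with unmodified K562 cells (WT, 2 libraries). The 5 libraries were chosen by their labels alone, out of 14 RNA-seq libraries in the whole study. K562 is an established chronic myeloid leukaemia line with erythroid and megakaryocytic features. The sgHBG cells stably carried dCas9 with a Flag tag and a biotin-acceptor tag (FB-dCas9), the biotin ligase BirA and guide RNAs for the promoters of the γ-globin genes HBG1 and HBG2. The WT cells carried no dCas9, no BirA and no guide RNA, so the effects of the guide RNA, of the 2 proteins and of the separate history of each population cannot be told apart in this comparison. The other libraries were used to share the estimate of the spread and to show where the sgHBG cells stood apart. They came from cells with FB-dCas9 and BirA and either a non-targeting guide RNA (sgGal4), a guide RNA for the enhancer HS2, which lies in the locus control region of β-globin (sgHS2), or guide RNAs for several elements of that region (sgHS1-5), with 3 libraries each. All cells were grown in the same serum-containing medium. Nothing in the labels tells if the replicates are cultures grown apart, so the p-values measure the spread between libraries, which may be technical. Each group is 1 population, stably modified in every group but WT.

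The human β-globin cluster holds, in order, the embryonic gene HBE1, the fetal genes HBG2 and HBG1, the pseudogene HBBP1 and the adult genes HBD and HBB, and the locus control region upstream of them acts as their shared enhancer. K562 cells express the embryonic and fetal genes and almost no adult globin. A dCas9 protein bound at a promoter can sit in the path of transcription, and the biotin tag serves to purify the DNA and proteins near it. Erythroid and megakaryocytic cells descend from a common progenitor, and the factors GATA1, KLF1, FLI1 and RUNX1 take part in the choice between them.

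The 5 libraries held between 9781552 and 11116665 counts, and a count of 0 in 1 library allowed a level of up to 0.261 to 0.3 CPM (read counts scaled to the library size, with TMM factors for composition). Counts of replicate libraries within WT and within sgHBG differed by 1.24 to 1.63 times the sampling noise of counting, so no pair was a library deposited in duplicate. In contrast, sgGal4 1, sgHS2 2, sgHS1-5 2 and sgHS1-5 3 stood apart from other libraries of their own groups, with ratios from 3.01 to 87.6. These 4 discordant libraries belong to neither group compared here, yet they enter the spread estimate that all comparisons share, and counts without them are given beside the results. The median log2 difference between sgHBG and WT ran from -0.08 in the shortest 20% of genes to 0.09 in the longest 20%. Markers of erythroid cells were present in every library, and all 10 of 10 were tested. Their summed level was between 1580 and 1590 CPM in WT and between 2000 and 2020 CPM in sgHBG. Without TFRC, the marker with the highest mean, the sums were 1105 and 1132 CPM in WT and 746, 742 and 742 CPM in sgHBG. Of all 10 markers 1, TFRC itself, was called higher and 4 lower.

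Of 14406 genes tested with edgeR's quasi-likelihood test, 4844 (33.6%) differed between sgHBG and WT at a Benjamini-Hochberg adjusted p under 0.05. Of these, 2547 genes (17.7%) were higher in sgHBG and 2297 (15.9%) were lower. Higher genes included more large differences, with 1400 genes at least 2-fold higher and 842 at least 2-fold lower, and 419 at least 10-fold higher against 36 at least 10-fold lower. Both WT libraries had 0 counts for 132 of the higher genes, and all 3 sgHBG libraries had 0 counts for 4 of the lower genes. The median log2 difference over all genes was 0.02. The counts became 5062 higher and 4844 lower (69.1% of the genes tested in that fit) without the 4 discordant libraries, and the list counts given without them stand against that larger share. Without sgGal4 1 alone 49.1% of genes were called, and with only the 5 libraries in the fit 72.1%, or 4897 higher and 4787 lower. Without WT 1 there were 1576 higher and 1328 lower, and without WT 2 there were 1568 and 1330, where the single WT library left is assumed to vary like the other groups. The comparison of sgHBG with sgGal4 called 3556 genes (24.7%), and sgGal4 against WT called 22.7% of genes higher and 19.6% lower. On the log2(RPKM + 1) scale 2200 genes were higher and 2520 lower, so that lower genes outnumbered higher ones. The 2 comparisons with sgGal4 share libraries with the one between sgHBG and WT. Their values are therefore given only side by side, for single genes and for some lists.

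**Figure D1:**
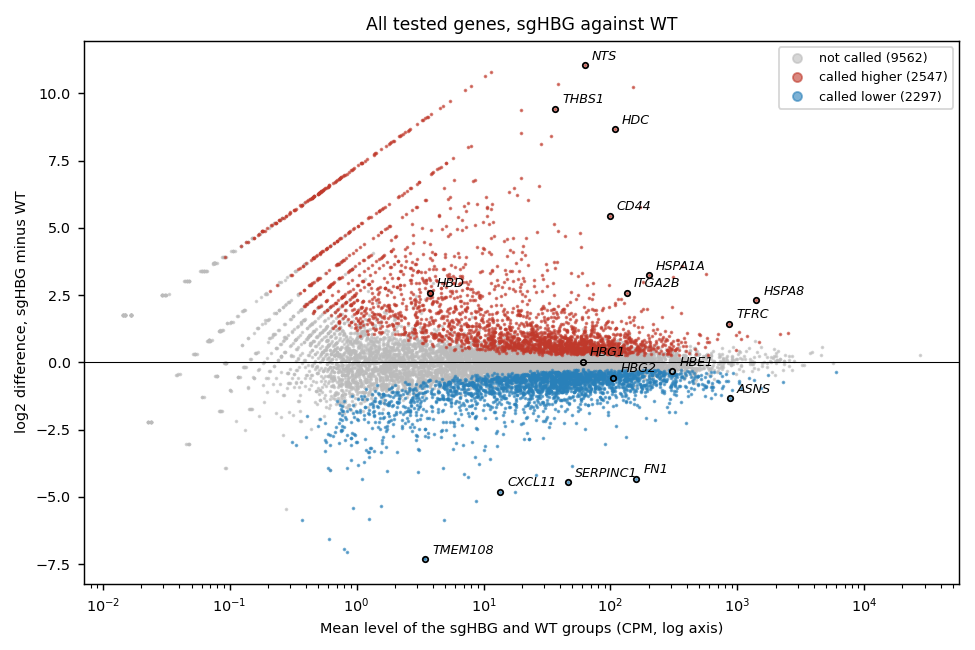
Mean level of the WT and sgHBG groups in CPM (horizontal, log axis) against the log2 difference sgHBG minus WT (vertical) for 14406 genes, with called genes coloured. The 2547 higher genes reach larger fitted differences than the 2297 lower genes, and the diagonal lines are genes with 0 or few counts in WT.

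Neither targeted gene differed from WT by the test. HBG1 was at 58.5 and 62 CPM in the WT libraries and at 59.8, 63.3 and 60.3 CPM in the sgHBG libraries. These values overlap, and the log2 difference was 0.02 ± 0.37 (SE, adjusted p = 0.976). HBG2 was at 122 and 129 CPM in WT and at 90.2, 82.1 and 80.5 CPM in sgHBG. All 3 sgHBG libraries lay below both WT libraries, and the mean was 1.49-fold lower, a log2 difference of -0.57 ± 0.36 (adjusted p = 0.251). The call for HBG2 depended on which libraries were in the fit. It passed the test with only the 5 libraries in the fit (adjusted p = 9.93e-25), without the 4 discordant libraries (1.98e-16) and without sgGal4 1 alone (0.0114). HBG1 and HBG2 are nearly identical in sequence, so their split of reads is uncertain. In the authors' deposited RPKM values, which are scaled by transcript length, HBG1 was at 161 and 166 in WT and 144, 139 and 139 in sgHBG, and HBG2 at 329.6 and 341 in WT and 216, 190.5 and 193 in sgHBG. On that scale both genes had lower values in every sgHBG library than in either WT library, with a log2 difference for HBG1 of -0.21 that did not pass the test (adjusted p = 0.691).

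The genes around the fetal pair moved differently from one another. The embryonic gene HBE1, the most abundant gene of the cluster, was at 342 and 346 CPM in WT and 289, 266 and 265 CPM in sgHBG, a log2 difference of -0.33 ± 0.30 (adjusted p = 0.445). It was lower in each sgHBG library and passed the test with only the 5 libraries (adjusted p = 4.35e-16) and without the 4 discordant libraries (5.71e-12). Per length, HBE1 exceeded HBG2 and HBG2 exceeded HBG1 in all 5 libraries. The adult gene HBD rose from 0.961 and 1.18 CPM in WT to 6.7, 5.71 and 7.06 CPM in sgHBG, 6.05-fold, with no overlap (log2 difference 2.58 ± 0.29, adjusted p = 2.51e-05). HBD was also higher than WT in sgGal4, at 5.67, 3.77 and 3.21 CPM (log2 difference 1.94), and sgHBG lay 0.64 above sgGal4 on the log2 scale (adjusted p = 0.0477). HBBP1 rose 3.61-fold, from 1.73 and 2.09 CPM in WT to 6.5, 8.02 and 6.19 CPM in sgHBG (log2 difference 1.84 ± 0.29, adjusted p = 0.000359). For HBBP1 the sgHBG cells stood above every other group, with 1.28, 1.26 and 1.19 CPM in sgGal4, 2.27, 4.29 and 3.5 CPM in sgHS2 and 3.4, 2.87 and 4.32 CPM in sgHS1-5. The log2 differences from these groups were 2.47, 1.05 and 0.96, with adjusted p of 5.7e-05, 0.0172 and 0.0127. HBB had 2 and 12 counts in WT and 0 in each sgHBG library and was too low to be tested in the main fit. In all, 2 of 5 tested genes of the cluster were higher and 0 were lower by edgeR (40% and 0%, against 17.7% and 15.9% of all genes). At an unadjusted p under 0.05, 0 were lower, and 0 by DESeq2 or limma voom. Without the 4 discordant libraries HBB also passed the filter, and 3 genes of the cluster were lower, HBE1, HBG2 and HBB. HBG1 was not called in that fit. Without sgGal4 1 alone 1 gene was lower.

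**Figure D2:**
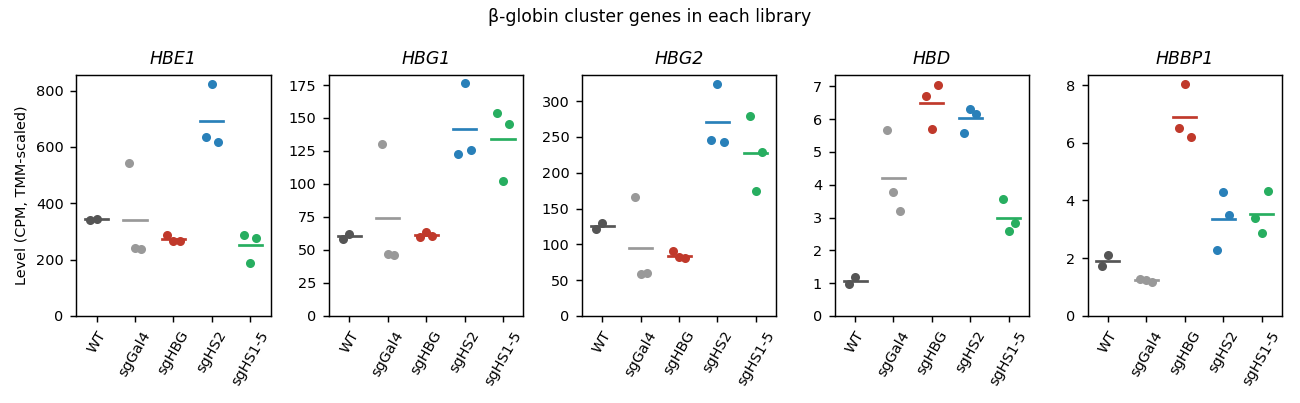
CPM of HBE1, HBG1, HBG2, HBD and HBBP1 in each library of the 5 groups (points are libraries, lines are group means). HBG1 overlaps between WT and sgHBG, HBG2 and HBE1 lie lower in sgHBG than in WT, and HBBP1 lies above every other group in sgHBG.

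Genes flanking the cluster on 11p15 showed no shared direction. Among 20 tested of 30 listed, 1 was higher and 3 were lower (5% and 15%, against 17.7% and 15.9% of all genes), and the median log2 difference was 0.15. RRM1, which encodes the large subunit of ribonucleotide reductase, fell from 238 and 226 to 130.4, 129.8 and 123 CPM (log2 difference -0.86 ± 0.11, adjusted p = 8.1e-05). STIM1, a calcium sensor of the endoplasmic reticulum, fell by 0.59 and PGAP2 by 0.37 on the log2 scale, and the call of PGAP2 was lost on leaving out any WT or sgHBG library. TRIM22, an interferon-induced antiviral gene, rose from 3.65 and 2.73 to 9.3, 8.91 and 10.1 CPM (log2 difference 1.56 ± 0.45, adjusted p = 0.0169), a call lost without either WT library. As many as 8 neighbours were higher and 5 lower without the 4 discordant libraries, and without sgGal4 1 alone 3 were higher.

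The α-globin cluster on another chromosome was lower in part. Of 10 tested genes 0 were higher, also at an unadjusted p under 0.05 and by DESeq2 and limma voom, and 3 were lower by edgeR (30%, against 15.9% of all genes), with a median log2 difference of -0.50. HBQ1, the θ-globin gene, fell from 15.6 and 16.8 to 6.7, 4.99 and 4.44 CPM (log2 difference -1.59 ± 0.45, adjusted p = 0.0153). RHBDF1 fell by 0.76 and NPRL3, whose introns hold the α-globin enhancers, by 0.42 on the log2 scale. The embryonic α-type gene HBZ was at 13 and 13.4 CPM in WT and 7.7, 9.63 and 9.15 CPM in sgHBG, a log2 difference of -0.58 that did not pass the test (adjusted p = 0.0773). HBA1 and HBA2 have nearly identical coding sequences, so their counts are uncertain. A single gene was lower without sgHBG 2, WT 1 or WT 2, and 1 was higher and 6 lower without the 4 discordant libraries.

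Among 35 transcription regulators of the globin genes, 4 were higher and 8 lower, against 17.7% and 15.9% of all genes, with a median of -0.07. KLF1, an activator of adult globin and of many erythroid genes, fell from 71.4 and 83.6 to 34, 37.9 and 37.8 CPM (log2 difference -1.08, adjusted p = 0.00505). TAL1, a partner of GATA1 in erythroid cells, fell by 0.69, the γ-globin repressor SOX6 by 1.15, the DNA methyltransferase DNMT1 by 0.68 and STAT5A by 0.80 on the log2 scale. CHD4, the ATPase of the NuRD complex, rose from 438 and 421 to 727, 717 and 734 CPM (log2 difference 0.76, adjusted p = 7.36e-05), and RUNX1, a factor of megakaryocytes and stem cells, rose by 0.61. Subunits of NF-Y, which binds the CCAAT boxes of the γ-globin promoters, moved in opposite directions, with NFYB down by 0.96 and NFYA up by 0.87. Likewise, of the small Maf proteins, MAFG fell by 0.62 and MAFK rose by 0.50. GATA1 was at 213 and 215 CPM in WT and 154, 161 and 159 CPM in sgHBG and did not pass the test (log2 difference -0.44, adjusted p = 0.183). The fit that left out the 4 discordant libraries called 13 regulators higher and 16 lower, without sgGal4 1 alone 9 and 13, and without WT 1 only 1 was higher.

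Genes of the red cell membrane and surface were mostly lower. Of 33 genes 18 were lower (54.5%, against 15.9% of all genes) and 6 higher (18.2%, against 17.7%), and the median log2 difference was -0.61. The sgGal4 cells shared this, with 6 genes higher and 17 lower than WT (22.7% and 19.6% of all genes) and a median of -0.81. Between sgHBG and sgGal4, 8 were higher and 4 lower in sgHBG (12.1% and 12.6% of all genes), with a median of 0.21. GYPE and GYPB, genes of the glycophorin family with similar sequences that could share reads, fell by 1.73 and 1.65 on the log2 scale, GYPE from 69.9 and 69.5 to 22.3, 19.6 and 20.9 CPM. SLC4A1, the anion exchanger band 3, fell from 5.48 and 4.82 to 0.9, 0.446 and 0.697 CPM. EPB42, which links band 3 to the cytoskeleton, had 34 counts over the WT libraries and 3 over the sgHBG libraries. The β-spectrin gene SPTB fell by 1.80 on the log2 scale. The 6 genes that rose included TFRC, the transferrin receptor, from 474 and 460.3 to 1262, 1274 and 1255 CPM (log2 difference 1.44 ± 0.19, adjusted p = 9.8e-05). The water channel AQP1 rose from 4.23 and 2.18 to 29, 25.8 and 27.4 CPM (log2 difference 3.09 ± 0.22). TRIM10, which takes part in terminal erythroid differentiation, rose from 0.385 and 0.455 to 5, 5.79 and 5.32 CPM (log2 difference 3.63 ± 0.36, adjusted p = 8.31e-06), and DMTN, CD47 and CD59 rose by 1.32, 1.28 and 0.76. In these bulk libraries, fewer cells of a kind and less RNA per cell cannot be told apart.

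Genes of heme synthesis and iron handling were lower in part, with 11 of 25 genes lower (44%, against 15.9% of all genes), 3 higher (12%, against 17.7%) and a median of -0.30. FECH, the last enzyme of heme synthesis, fell from 90.1 and 85.6 to 37.5, 35.4 and 37 CPM (log2 difference -1.26 ± 0.11, adjusted p = 2.58e-06). BLVRB, a biliverdin reductase abundant in red cells, fell from 509 and 551 to 195, 184 and 187 CPM, by 1.49 on the log2 scale. The mitochondrial iron importer SLC25A37 fell by 0.98. The pathway enzyme gene ALAD fell by 0.64 on the log2 scale. The 2 forms of the first enzyme moved in opposite directions. The erythroid form ALAS2 fell from 101 and 101 to 52.4, 54 and 54.8 CPM (log2 difference -0.91, adjusted p = 0.00261), and the general form ALAS1 rose from 40.8 and 39.6 to 77.1, 76.8 and 76 CPM (log2 difference 0.93, adjusted p = 0.00331). FLVCR1, described as a heme exporter, and CPOX were the other genes that rose, by 0.75 and 0.50. Without WT 2 only 1 gene was higher, and 5 were higher without sgGal4 1 or without the 4 discordant libraries.

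Megakaryocyte and platelet genes were higher. Of 28 listed genes 21 were tested, 14 were higher against 17.7% of all genes, and the median log2 difference was 1.77. By edgeR 0 were lower, as at an unadjusted p under 0.05 and by DESeq2 and limma voom, and 2 were lower without the 4 discordant libraries. ITGA2B, the α chain of the platelet fibrinogen receptor, rose 6-fold, from 38.5 and 38.4 to 229, 231 and 232 CPM (log2 difference 2.58 ± 0.19, adjusted p = 8.31e-07). This level set the sgHBG cells apart from all other groups, since ITGA2B was at 63.4, 48.4 and 48.1 CPM in sgGal4, 61.7, 74.3 and 60.7 CPM in sgHS2 and 122, 80.2 and 117 CPM in sgHS1-5. The β chain gene ITGB3 rose from 5.29 and 3.82 to 11.7, 11.5 and 12 CPM. THBS1, a platelet granule and matrix protein, had 2 counts over the WT libraries and was at 74.3, 70.5 and 75.2 CPM in sgHBG, a ratio of 784 (95% counting interval 217 to 6477). The ETS factor FLI1, which drives megakaryocytic genes, had 0 counts in WT and 7.9, 6.86 and 6.88 CPM in sgHBG, at least 51.2-fold higher. The adhesion receptor gene SELP rose from 0.288 and 0.091 to 5, 5.26 and 5.84 CPM (log2 difference 4.75 ± 0.73, 5.69 without WT 1 and 4.16 without WT 2). RAB27B, a GTPase of platelet granule release, rose from 9.42 and 8.28 to 85.3, 94.4 and 86 CPM, and MMRN1, a platelet and endothelial granule protein, from 0 counts by at least 26.2-fold. The defining platelet chemokine genes stayed near the limit of detection and were not tested, with 0 counts in WT and 3 in sgHBG for PF4, and 1 and 21 for PPBP. The 3 megakaryocyte markers that could be tested were all higher, and the summed level of the 6 markers was 42.4 to 44 CPM in WT and 247 to 250 CPM in sgHBG.

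Genes of mast cells and basophils were higher as well. Of 13 listed genes 7 were tested, and 6 of these were called (85.7%, against 17.7% of all genes). The median was 3.34, or 2.68 with no low-count filter. In any list, a gene with 0 counts in WT, such as FCER1A here, was tested only through its counts in other groups. Such a gene could not be called lower. HDC, the enzyme that makes histamine, was at 0.769 and 0.273 CPM in WT and at 210.0, 215 and 220.1 CPM in sgHBG, 413-fold higher (log2 difference 8.67 ± 0.29, 9.55 without WT 1, adjusted p = 1.66e-09). It was also high in sgGal4, at 129.8, 150.4 and 152 CPM. KIT, the stem cell factor receptor of progenitors and mast cells, rose 5.6-fold, from 18.7 and 14.9 to 90.2, 95.4 and 96.6 CPM, by 2.49 ± 0.23 on the log2 scale, and by 2.59 in sgGal4 against WT. The β and α chain genes of the high-affinity IgE receptor rose too, MS4A2 from 2.21 and 2.91 to 37.8, 35.9 and 36.4 CPM and FCER1A from 0 to 93 counts, at least 20.3-fold. IL1RL1, the IL-33 receptor, rose by 3.34 and the basophil surface enzyme gene ENPP3 by 1.89. The mast cell protease genes CPA3 and CMA1 had 0 counts in all 5 libraries. None of the tested genes was lower, 0 by edgeR at either an adjusted or an unadjusted p under 0.05 and 0 by DESeq2 and limma voom.

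Other blood lineages showed a mixture. Of 22 tested myeloid genes 6 were higher and 1 lower (27.3% and 4.55%, against 17.7% and 15.9% of all genes), with a median of 0.76. MS4A3, a gene of granulocyte and monocyte progenitors and basophils, rose 8.92-fold, from 66.2 and 58.3 to 569.9, 554 and 541 CPM (log2 difference 3.16 ± 0.15, adjusted p = 2.93e-08). FCGR2A, a receptor for IgG on myeloid cells and platelets, rose from 80.2 and 75.9 to 319, 306 and 305 CPM. The signalling chains FCER1G and TYROBP rose, FCER1G from 0.385 and 0.546 to 16.5, 17.1 and 16.3 CPM and TYROBP by 2.65 on the log2 scale. CEBPB was the lower gene, by 0.54, a call lost on leaving out any WT or sgHBG library. The 6 myeloid markers did not pass the test, and their summed level was 48.2 to 49.2 CPM in WT and 90.5 to 100.4 CPM in sgHBG, mostly from LYZ. Without the 4 discordant libraries 10 genes of the myeloid list were higher and 4 lower.

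Of 17 tested lymphoid genes 7 were higher and 1 lower (41.2% and 5.88%, against 17.7% and 15.9% of all genes), with a median of 1.61. CD69, an early activation antigen that also occurs on platelets, rose from 26.4 and 28 to 101, 99.8 and 99.9 CPM (log2 difference 1.88 ± 0.14, adjusted p = 7.68e-07). CD52 rose by 2.11, and CD3D, a T cell receptor chain, from 2.21 and 3.73 to 8.2, 10.9 and 8.28 CPM, a call lost without WT 1 (adjusted p = 0.102). The cytotoxic granule gene NKG7 had 0 counts in WT and 37 in sgHBG, at least 8.07-fold higher. Only 2 lymphoid genes were higher without WT 1 and 3 without WT 2. The B cell marker MS4A1 was at 0 in all 5 libraries, and the summed level of the 5 lymphoid markers was 5 to 8.65 CPM in WT and 11.9 to 15.4 CPM in sgHBG. Of 14 tested genes of fibroblasts, epithelium and endothelium 5 were higher and 1 lower (35.7% and 7.14%). The lower gene was the fibronectin gene FN1 (log2 difference -4.33), which is not among the summed markers. The median of 0.43 of this list was unstable, at 0.90 with no low-count filter, 0.78 without the 4 discordant libraries, 0.06 with only the 5 libraries in the fit, 0.74 without WT 1 and -0.04 on the log2(RPKM + 1) scale. Summed markers moved from 4.82 to 5.1 CPM in WT to 11.1 to 13 CPM in sgHBG for fibroblasts, and from 186 to 189 CPM to 148 to 158 CPM for epithelium, with LUM and KRT5 at 0. Endothelial markers summed to 2.69 to 4.28 CPM in WT and 2.61 to 4.55 CPM in sgHBG. Whether other cell types took part in any of these differences was not tested.

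**Figure D3:**
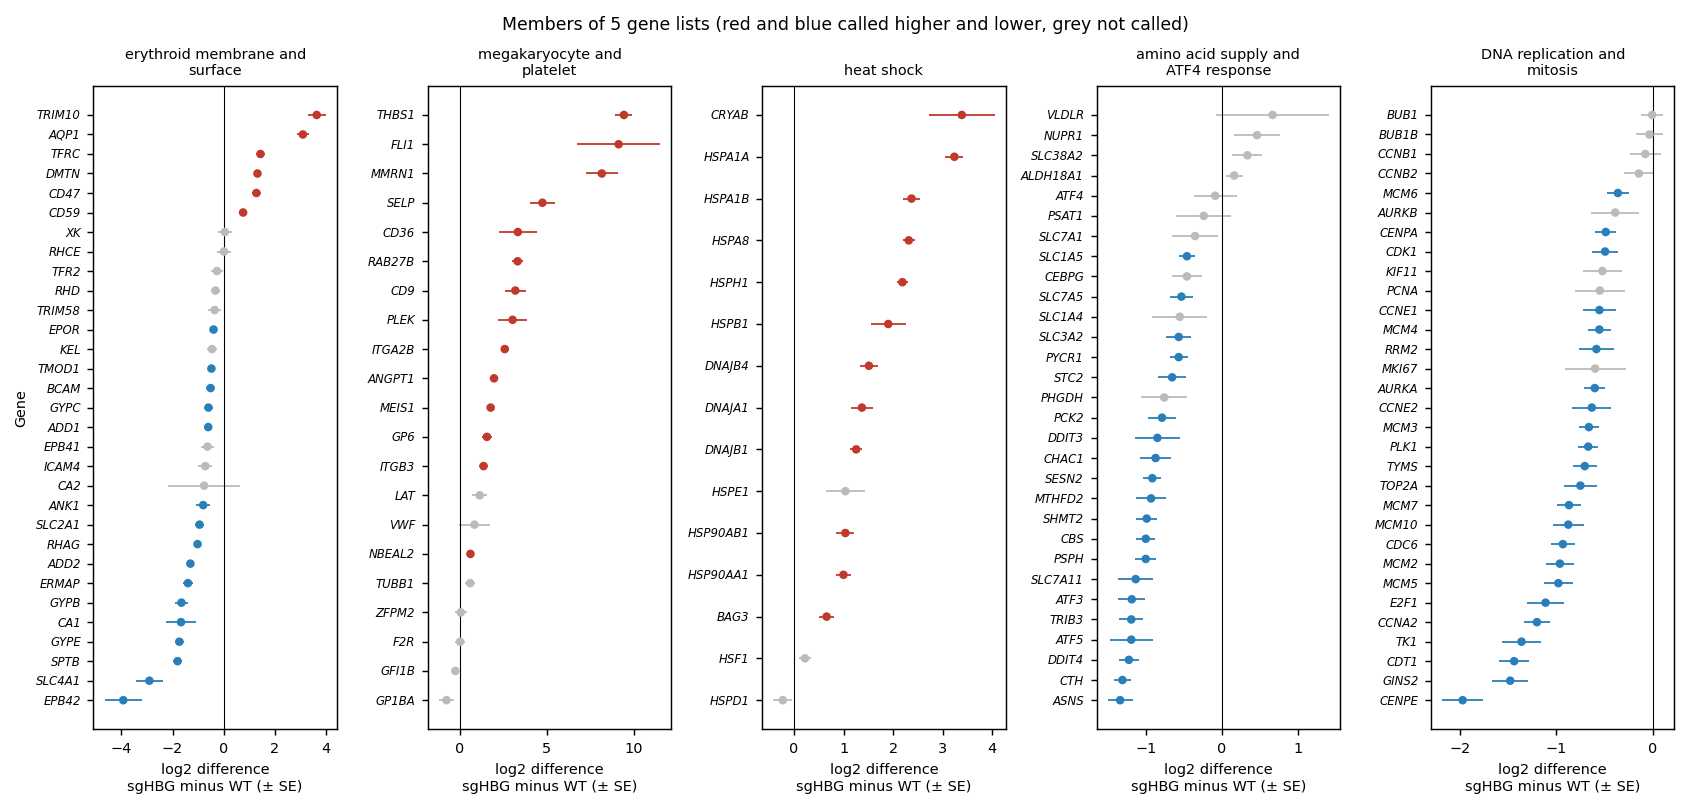
Log2 difference sgHBG minus WT with its standard error for tested genes of 5 lists: red cell membrane, megakaryocyte, heat shock, amino acid supply and replication. Red cell membrane genes lie on both sides of 0 with more below, most megakaryocyte and heat shock genes lie above it, most amino acid supply genes lie below it, and the replication genes lie below it. Fitted values of genes with 0 counts in WT, such as FLI1, depend on the prior count.

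Heat shock genes, which encode chaperones that hold and refold proteins in the cytosol and nucleus, were higher. Of 15 genes 12 were higher (80%, against 17.7% of all genes), with a median log2 difference of 1.37, and 0 were lower by edgeR, at an unadjusted p under 0.05 and by DESeq2 and limma voom. The constitutive chaperone gene HSPA8 rose 4.98-fold, from 483 and 461 to 2407, 2311 and 2327 CPM (log2 difference 2.31 ± 0.12, adjusted p = 3.68e-08). The inducible gene HSPA1A rose 9.42-fold, from 36 and 40.9 to 359, 378 and 349 CPM (log2 difference 3.23 ± 0.18, adjusted p = 9e-08). Its near-identical neighbour HSPA1B rose from 34.1 and 39.6 to 186, 191 and 195 CPM, with reads that the pair could share. HSPH1, a nucleotide exchange factor for these chaperones, rose from 40 and 38.9 to 176, 180.0 and 183 CPM, and the co-chaperone DNAJB1 and the small chaperones HSPB1 and CRYAB rose by 1.25, 1.90 and 3.38 on the log2 scale. The sgHBG and WT libraries did not overlap for any of the genes named so far in this group. HSF1, the factor that drives the response, differed by 0.22 (adjusted p = 0.16), and the mitochondrial chaperone genes HSPD1 and HSPE1 by -0.22 and 1.04 (adjusted p = 0.413 and 0.0576). The sgGal4 cells had HSPA8 at 2345, 2026 and 2026 CPM, 2.18 above WT on the log2 scale, and its log2 difference between sgHBG and sgGal4 was 0.14 (adjusted p = 0.301). As a list, 14 heat shock genes were higher and 0 lower in sgGal4 than in WT (22.7% and 19.6% of all genes). The median was 1.69. Between sgHBG and sgGal4, 0 were higher and 0 lower (12.1% and 12.6% of all genes), with a median of -0.005.

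The promoter of HSPA8 is printed because it was the promoter of the heat shock list that held the searched heat shock element, which was GAA, any 2 bases, TTC, any 2 bases and GAA, on either strand. It runs over 250 bases upstream of the start, at chr11:123062137-123062386 on the minus strand of GRCh38.p14 (RefSeq), with the 2 matches in capitals.
HSPA8: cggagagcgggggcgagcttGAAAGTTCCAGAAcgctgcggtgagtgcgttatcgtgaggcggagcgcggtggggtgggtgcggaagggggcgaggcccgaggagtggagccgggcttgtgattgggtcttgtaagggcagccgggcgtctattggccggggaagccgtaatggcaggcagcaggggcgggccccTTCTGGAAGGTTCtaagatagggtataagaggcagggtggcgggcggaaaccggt
The element was found in 1 of 13 promoters of the list that matched RefSeq (7.69%) and in 155 of 35116 promoters in all (0.441%). A match describes the letters and is not a measurement of binding.

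Genes of amino acid supply and the ATF4 response were lower. ATF4 is a transcription factor whose translation rises under amino acid shortage or endoplasmic reticulum stress, and it activates enzymes and transporters that supply amino acids. Of 30 genes 20 were lower, against 15.9% of all genes, and the median log2 difference was -0.78. By edgeR 0 were higher, as at an unadjusted p under 0.05 and by DESeq2 and limma voom. Without the 4 discordant libraries 4 were higher and 26 lower, and without sgGal4 1 alone 2 were higher. Asparagine synthetase fell 2.54-fold, from 1268 and 1234 CPM for ASNS in WT to 508, 489 and 482 CPM in sgHBG (log2 difference -1.34 ± 0.16, adjusted p = 5.13e-05). The sgHBG level of ASNS was also below that of sgGal4, at 1198, 814 and 786 CPM (log2 difference -0.92, adjusted p = 0.00101). The list as a whole was lower in sgGal4 too. Against WT, sgGal4 had 2 genes higher and 17 lower (22.7% and 19.6% of all genes), with a median of -0.84. Between sgHBG and sgGal4, 5 were higher and 3 lower in sgHBG (12.1% and 12.6% of all genes), with a median of 0.22. CTH and CBS, the enzymes that turn homocysteine into cysteine, fell from 148 and 129.9 to 53.9, 58.7 and 55.1 CPM and from 591 and 616 to 297, 302 and 303 CPM, and the cystine transporter SLC7A11 fell by 1.14 on the log2 scale. DDIT4, an inhibitor of mTORC1, fell from 1024 and 1048 to 449.7, 437 and 440.0 CPM (log2 difference -1.23). The stress factors ATF3, DDIT3 and TRIB3 fell by 1.19, 0.85 and 1.20. ATF4 mRNA itself was at 666 and 653 CPM in WT and 625, 621 and 611 CPM in sgHBG and did not pass the test (log2 difference -0.09, adjusted p = 0.845).

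The promoters of ASNS and ATF3 are printed because these 2 lower genes held the searched C/EBP-ATF element, which was TGATG, any base and AA on either strand, shown in capitals. The ASNS window is chr7:97872409-97872658 on the minus strand and the ATF3 window is chr1:212565157-212565406 on the plus strand of GRCh38.p14 (RefSeq), each of 250 bases upstream of the start.
ASNS: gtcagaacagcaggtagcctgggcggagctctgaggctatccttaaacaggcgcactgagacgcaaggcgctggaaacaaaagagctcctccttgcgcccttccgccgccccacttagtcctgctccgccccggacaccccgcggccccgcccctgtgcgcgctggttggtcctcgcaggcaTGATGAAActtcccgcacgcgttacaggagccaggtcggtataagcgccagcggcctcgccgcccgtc
ATF3: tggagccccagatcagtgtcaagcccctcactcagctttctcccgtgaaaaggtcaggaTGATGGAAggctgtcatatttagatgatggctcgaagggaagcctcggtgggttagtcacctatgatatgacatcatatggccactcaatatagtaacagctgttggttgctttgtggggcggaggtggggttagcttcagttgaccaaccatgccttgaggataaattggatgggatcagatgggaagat
The element was in 3 of 25 matched promoters of the list (12%), the third being CHAC1, and in 1104 of 35116 promoters in all (3.14%). For each gene of both lists only the first promoter entry was searched. Any other start of a gene, ATF3 included, was not searched.

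Endoplasmic reticulum chaperones were lower in part, with 8 of 22 genes lower (36.4%, against 15.9% of all genes) and a median of -0.36. By edgeR 0 were higher, as at an unadjusted p under 0.05 and by DESeq2 and limma voom. HSPA5, the main chaperone of that compartment, fell from 2069 and 2012 to 1060.3, 1031 and 1047 CPM (log2 difference -0.96 ± 0.16, adjusted p = 0.000412). HYOU1 fell from 1212 and 1209 to 595, 594 and 592 CPM, and CALR and DNAJB11 by 0.70 and 0.77 on the log2 scale. XBP1, a factor of the unfolded protein response, differed by -0.06 and did not pass the test. Without the 4 discordant libraries 3 were higher and 17 lower, without sgGal4 1 alone 1 and 14, and without WT 1 only 5 were lower.

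DNA replication and mitosis genes were lower. Of 32 genes 24 were lower (75%, against 15.9% of all genes), the median was -0.65, and 0 were higher by edgeR, at an unadjusted p under 0.05 and by DESeq2 and limma voom. In sgGal4, 1 gene was higher and 22 lower than WT (22.7% and 19.6% of all genes), with a median of -0.66. Between sgHBG and sgGal4, 2 were higher and 4 lower in sgHBG (12.1% and 12.6% of all genes), with a median of -0.19. CENPE, a kinetochore motor, fell 3.93-fold, from 162 and 145 to 38.7, 36.2 and 42.3 CPM (log2 difference -1.97 ± 0.21, adjusted p = 1.89e-05). CDT1, which licenses replication origins, fell from 309 and 332 to 117, 114 and 123 CPM. The helicase subunits GINS2 and MCM5 fell by 1.48 and 0.98 and the cyclin gene CCNA2 by 1.20 on the log2 scale. The proliferation marker MKI67, the sliding clamp gene PCNA and the mitotic cyclin gene CCNB1 did not pass the test, at -0.60, -0.55 and -0.08.

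Interferon-response genes were higher on balance. Of 35 tested genes 18 were higher and 1 lower (51.4% and 2.86%, against 17.7% and 15.9% of all genes), with a median of 1.19 that was 0.71 without WT 1. GBP4, an interferon-induced GTPase, was at 0.481 and 0.182 CPM in WT and 40, 41.5 and 34.9 CPM in sgHBG, 117-fold higher (log2 difference 6.83 ± 0.37, 7.64 without WT 1, adjusted p = 6.9e-08). GBP2 rose from 5.77 and 4.92 to 59.5, 54.8 and 59 CPM, and IFIH1, a sensor of double-stranded RNA, from 2.98 and 3.1 to 22.2, 21.7 and 21.4 CPM. GBP1 had 0 counts in WT and was at least 17.4-fold higher, and XAF1, IFIT2 and MX2 rose by 4.02, 3.76 and 3.46 on the log2 scale. Paralogs among the GBP genes may share reads. IRF9 and ISG15, members of the response, did not pass the test, at -0.01 and 0.63. IFI27 was the lower gene, by 1.83. Among 20 tested genes of the major histocompatibility complex and antigen processing 6 were higher (30%), with a median of 0.93, and 0 were lower by edgeR, at an unadjusted p under 0.05 and by DESeq2 and limma voom. HLA-E rose from 159 and 162 to 322, 331 and 333 CPM, the immunoproteasome subunit gene PSMB9 rose by 2.44 and the peptide transporter gene TAP1 by 0.83. HLA-DPB1 had 3 counts in WT and 175 in sgHBG, a ratio of 38.2 (95% counting interval 12.8 to 187). The light chain gene B2M did not pass the test, at 0.23. When the 4 discordant libraries were left out, 26 interferon genes were higher and 4 lower, and 13 histocompatibility genes were higher and 1 lower.

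Adhesion receptors included some of the larger differences. Of 21 tested genes 11 were higher and 1 lower (52.4% and 4.76%, against 17.7% and 15.9% of all genes), with a median of 1.10. CD44, the hyaluronan receptor, rose 43.8-fold, from 4.9 and 3.91 to 197, 193 and 189 CPM (log2 difference 5.45 ± 0.18, adjusted p = 1.66e-09). ITGA4, an integrin chain that binds fibronectin, rose from 0.769 and 0.364 to 55.6, 52 and 55.2 CPM (log2 difference 6.56, 7.17 without WT 1), and SELPLG, the ligand of P-selectin, from 5.58 and 4.55 to 68.2, 66.8 and 64.7 CPM. ITGB5 rose by 2.11, and L1CAM fell by 0.91. Without WT 1 only 5 adhesion genes were higher and the median was 0.66, and without WT 2 the values were 7 and 0.70. Without sgHBG 1 the median was 0.66. Of 22 tested collagen and matrix genes 8 were higher and 4 lower (36.4% and 18.2%), with a median of 0.82, and 2 were lower without WT 2. Fibronectin, FN1, fell 20.2-fold, from 305 and 307 to 14.8, 16.9 and 13.8 CPM (log2 difference -4.33 ± 0.57, adjusted p = 9.59e-05). In sgGal4 FN1 was at 0.851, 1.64 and 1.47 CPM, below both other groups. LAMB1, a laminin chain, fell from 87.4 and 89.9 to 19.1, 17.7 and 18.7 CPM, and COL6A1, SPARC and COL1A2 rose by 2.27, 1.42 and 2.03.

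**Figure D4:**
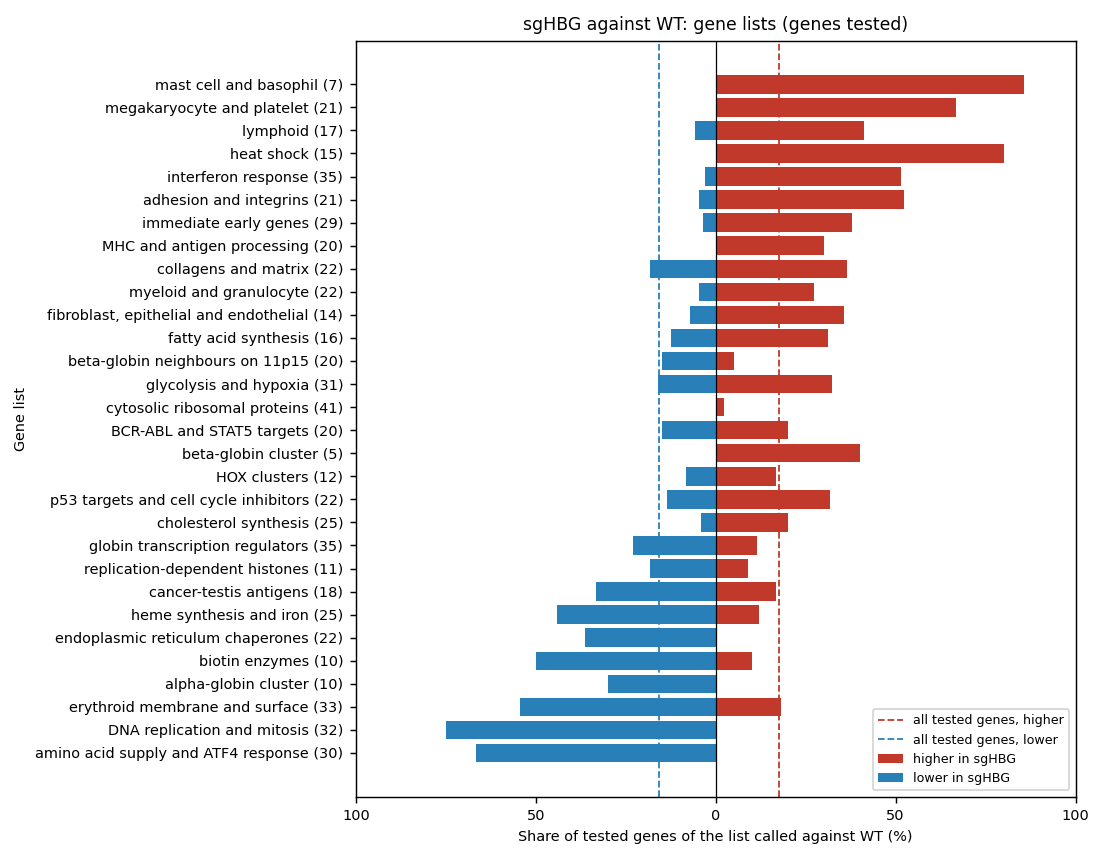
Share of the tested genes of each list called higher in sgHBG (right) or lower (left) than in WT, ordered by the median log2 difference, with dashed lines at the shares over all genes, 17.7% and 15.9%. Mast cell, heat shock and megakaryocyte lists have the highest shares called higher, and the replication and amino acid supply lists the highest shares called lower.

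Medians of lists with many genes near 0 in WT were smaller on the log2(RPKM + 1) scale, which understates the change of low genes. They were 1.0 for megakaryocyte genes, 1.90 for mast cell genes, 0.20 for myeloid genes, 0.38 for lymphoid genes, 0.46 for interferon-response genes, 0.39 for adhesion genes, 0.33 for matrix genes and 0.50 for immediate early genes. The adhesion median was also 0.67 with no low-count filter and 0.68 by limma voom.

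Signalling and cell cycle control genes moved in part. Of 29 tested immediate early genes 11 were higher and 1 lower (37.9% and 3.45%, against 17.7% and 15.9% of all genes), with a median of 0.96. EGR1 rose 7.78-fold, from 16.7 and 16.7 to 128, 126 and 136 CPM (log2 difference 2.96 ± 0.19, adjusted p = 2.95e-07). FOSB, FOS and FOSL1 rose by 2.79, 2.67 and 1.62 on the log2 scale, and MYC differed by 0.02 without passing the test. Of 22 tested targets of p53 and inhibitors of the cell cycle 7 were higher and 3 lower (31.8% and 13.6%), with a median of 0.00, and 7 were lower without the 4 discordant libraries. CDKN1A, which encodes the cyclin-dependent kinase inhibitor p21, rose from 28.7 and 25.8 to 80.4, 82.6 and 78.6 CPM (log2 difference 1.57 ± 0.12). CDKN2A and CDKN2B had 0 counts in all 5 libraries. Of 20 tested targets of BCR-ABL, the fusion kinase of K562, and of STAT5, 4 were higher and 3 lower, shares of 20% and 15% that are near those of all genes, with a median of 0.05, and 9 and 5 without the 4 discordant libraries. CCND1, which encodes cyclin D1, rose from 6.15 and 5.64 to 35.4, 33.2 and 33.5 CPM, whereas SOCS2 fell by 0.51. As many as 19 immediate early genes were higher without the 4 discordant libraries. With only the 5 libraries in the fit the median of that list was 0.55.

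Metabolic lists had calls in both directions. Of 31 glycolysis and hypoxia genes 10 were higher (32.3%, against 17.7% of all genes) and 5 lower (16.1%, near the 15.9% of all genes), with a median of 0.15. The glucose transporter gene SLC2A3 rose from 127 and 114 to 388, 384 and 382 CPM, and P4HA1 and PKM rose by 1.40 and 0.91 on the log2 scale. HK1, a hexokinase, fell from 797 and 776 to 317, 332 and 335 CPM, and VEGFA, an angiogenic factor, from 510.1 and 521 to 274, 270.0 and 266 CPM. Cholesterol synthesis had 5 of 25 genes higher and 1 lower (20% and 4%, the first near the share of all genes), with a median of -0.04. SQLE, squalene epoxidase, rose 3.59-fold, from 160.4 and 155 to 566, 580.0 and 554 CPM (log2 difference 1.84 ± 0.14, adjusted p = 9.5e-07), and was higher still in sgGal4, at 1211, 985 and 969.5 CPM. INSIG1, a sterol-regulated brake on the pathway, rose by 0.53 on the log2 scale. SREBF2, the factor that drives the pathway, was the lower gene, by 0.55, a call lost on leaving out any WT or sgHBG library. Without sgGal4 2 there were 2 lower cholesterol genes, without sgGal4 1 there were 7, and without the 4 discordant libraries there were 10. Of 16 fatty acid synthesis genes 5 were higher and 2 lower (31.2% and 12.5%), with a median of 0.21, and 11 and 4 without the 4 discordant libraries. Without sgGal4 1 alone, 8 were higher.

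The sgHBG cells carry a biotin ligase and a biotin-acceptor tag, so the cell's own enzymes that use biotin were listed. Of 10 tested genes 5 were lower (50%, against 15.9% of all genes) and 1 higher (10%, against 17.7%), with a median of -0.43. The sgGal4 cells carry the same 2 proteins. They had 4 genes higher and 5 lower than WT (22.7% and 19.6% of all genes), with a median of -0.22. Between sgHBG and sgGal4, 1 was higher and 3 lower in sgHBG (12.1% and 12.6% of all genes), with a median of 0.003. A part of the ligase in these differences was not tested. PC, pyruvate carboxylase, fell 4.84-fold, from 33.4 and 34.1 to 7, 6.6 and 7.32 CPM (log2 difference -2.27 ± 0.13, adjusted p = 1.19e-07). ACACB, MCCC1 and PCCB, which encode further biotin-dependent carboxylases or their partner subunits, fell by 1.63, 0.92 and 0.50 on the log2 scale. HLCS, the cell's own biotin ligase, fell by 0.68, and SLC5A6, the biotin transporter, rose by 0.50. Without sgGal4 1 or without the 4 discordant libraries 2 were higher.

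Among the remaining lists, 1 of 41 cytosolic ribosomal protein genes was higher and 0 were lower by edgeR, at an unadjusted p under 0.05 and by DESeq2 and limma voom. The called gene RPS10, which has near-identical pseudogenes, differed by 2.25 in the counts and by 0.32 in the RPKM values, where it did not pass the test. The median of the ribosomal list was 0.07, and 22 were higher and 7 lower without the 4 discordant libraries, or 9 and 2 without sgGal4 1. Of 11 tested histone genes 1 was higher and 2 lower (9.09% and 18.2%), with a median of -0.17, and 0 were higher and 0 or 1 lower on leaving out any WT or sgHBG library. Of 18 tested cancer-testis antigens 3 were higher and 6 lower (16.7% and 33.3%, against 17.7% and 15.9% of all genes), with a median of -0.20. PRDM9, the meiotic recombination methyltransferase, rose from 6.06 and 5.55 to 114, 109 and 113 CPM, and NAA11, an acetyltransferase gene, fell from 23.4 and 22.3 to 2.5, 2.76 and 2.7 CPM. Of 12 tested HOX genes 2 were higher and 1 lower (16.7% and 8.33%), with a median of 0.01. HOXB9 fell from 329 and 339 to 193, 196 and 189 CPM, and its neighbour HOXB6 rose by 0.81 on the log2 scale and HOXB5 from 4.23 and 4.19 to 8.4, 9.27 and 7.67 CPM, and 0 or 1 HOX genes were higher on leaving out any WT or sgHBG library.

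The largest increases were in genes at or near 0 counts in WT. NTS, the neuropeptide neurotensin, had 1 count over the WT libraries and 132, 124 and 121 CPM in sgHBG, a ratio of 2675 (95% counting interval 479.9 to 105700.0). Genes with 0 counts in WT included the growth factor gene PDGFD, at 22.6, 22.9 and 23.2 CPM in sgHBG and at least 163-fold higher, and the amino acid transporter gene SLC6A15, at least 147-fold higher. LMCD1 was at least 114-fold higher, the inflammatory caspase CASP1 at least 102-fold, its paralog CARD16 at least 77.2-fold, the metallothionein MT1F at least 67.8-fold and the synaptic adhesion gene SLITRK1 at least 65.2-fold. SSPN, of the dystrophin complex, had 1 count in WT and 1284 in sgHBG, a ratio of 839.9 (95% counting interval 150.5 to 33200.0). CASP1 and CARD16 are similar in sequence, as are the metallothionein genes, and may share reads. Some of these genes were also called higher than WT in sgGal4. Mean levels in sgGal4 and sgHBG were 12.6 and 22.9 CPM for PDGFD and 2.26 and 14.3 CPM for CASP1. They were 1.52 and 9.54 CPM for MT1F, 7.96 and 10.8 CPM for CARD16 and 12.3 and 9.12 CPM for SLITRK1. CARD16 and SLITRK1 did not differ between sgHBG and sgGal4 by the test, and the others were higher in sgHBG.

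The 12 largest decreases included FN1, described with the matrix genes, and several genes with few counts left in sgHBG. SERPINC1, antithrombin, fell 22.2-fold, from 86.5 and 89.8 to 3.9, 4.01 and 4.01 CPM (log2 difference -4.47 ± 0.21, adjusted p = 2.32e-08), with a log2 difference of -4.60 between sgGal4 and WT. The chemokine gene CXCL11 fell from 26.1 and 26.2 to 1.1, 0.713 and 0.959 CPM (log2 difference -4.81 ± 0.26). IMPA2, an inositol phosphatase, fell from 16 and 17.8 to 0.2, 0.446 and 0.697 CPM. S100A6, a calcium-binding protein, had 145 counts over WT and 1 over sgHBG, a ratio of 222 (95% counting interval 39.2 to 8815), and TMEM108 had 148 and 1, a ratio of 226 (95% counting interval 40 to 8996). TRO, with 53 counts against 1, and the imprinted noncoding RNA MEG3, with 65 against 2, were lower by ratios of 81 (95% counting interval 13.9 to 3259.9) and 49.7 (95% counting interval 13.2 to 419). The cancer-testis genes CTAG2 and SSX3, both members of families with near-identical copies, fell by 5.85 and 4.83 on the log2 scale, and CTAG2 by 6.57 without sgHBG 1. LDHD, a lactate dehydrogenase of mitochondria, and the noncoding LINC00656 were the others, with a ratio of 22.9 (95% counting interval 7.36 to 115) and a log2 difference of -4.28.

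A smaller set of genes separated the sgHBG cells from every other group. A gene was counted when sgHBG differed in the same direction from WT, sgGal4, sgHS2 and sgHS1-5, each at an adjusted p under 0.05. There were 92 such genes higher (0.639% of genes tested) and 11 lower (0.0764%), and 535 in both directions together without the 4 discordant libraries. Without sgGal4 1 alone the total was 193, and without sgHBG 1, 2 or 3 it was 57, 57 and 53. Besides HBBP1, the higher genes included ITGA2B, SELP, THBS1 and MEIS1 of the megakaryocyte list, CD69, GBP4 and TRIM10. KRT81, a hair keratin, had 0 counts in WT and 9.1, 5.88 and 6.8 CPM in sgHBG, at least 51.2-fold higher, with log2 differences of 5.23 from sgGal4, 2.96 from sgHS2 and 5.54 from sgHS1-5. FRG2, a gene with near-identical copies, had 1 count in WT and 15.2, 14.4 and 15.9 CPM in sgHBG. MT1G had 1 count in WT and 263 in sgHBG, and CHRM3-AS2, an antisense RNA whose reads cannot be told from those of its partner in a library without strand, had 0 and 166. On the lower side PYCARD, the adaptor of inflammasomes, fell from 15.9 and 20.8 to 2.2, 2.32 and 1.83 CPM, with log2 differences of -3.11 from WT, -2.36 from sgGal4, -2.24 from sgHS2 and -2.73 from sgHS1-5. LAMB1 was lower by -0.98, -0.71 and -0.89 than the same 3 groups. RHPN2, MXRA8 and CAPN5 were lower than WT by -1.20, -1.34 and -0.77 on the log2 scale, and CAPN5 lost its call against WT without sgHBG 1, sgHBG 3 or WT 2.

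SLC17A7, a vesicular glutamate transporter, differed from WT in opposite directions in 2 groups. It was at 14.6 and 17.3 CPM in WT, 8.7, 10.7 and 10 CPM in sgHBG and 19, 22.5 and 23.7 CPM in sgGal4. The sgHBG libraries lay below the WT libraries (log2 difference -0.70, adjusted p = 0.00566, 0.0832 without WT 2) and the sgGal4 libraries above them (log2 difference 0.45, adjusted p = 0.0427).

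**Figure D5:**
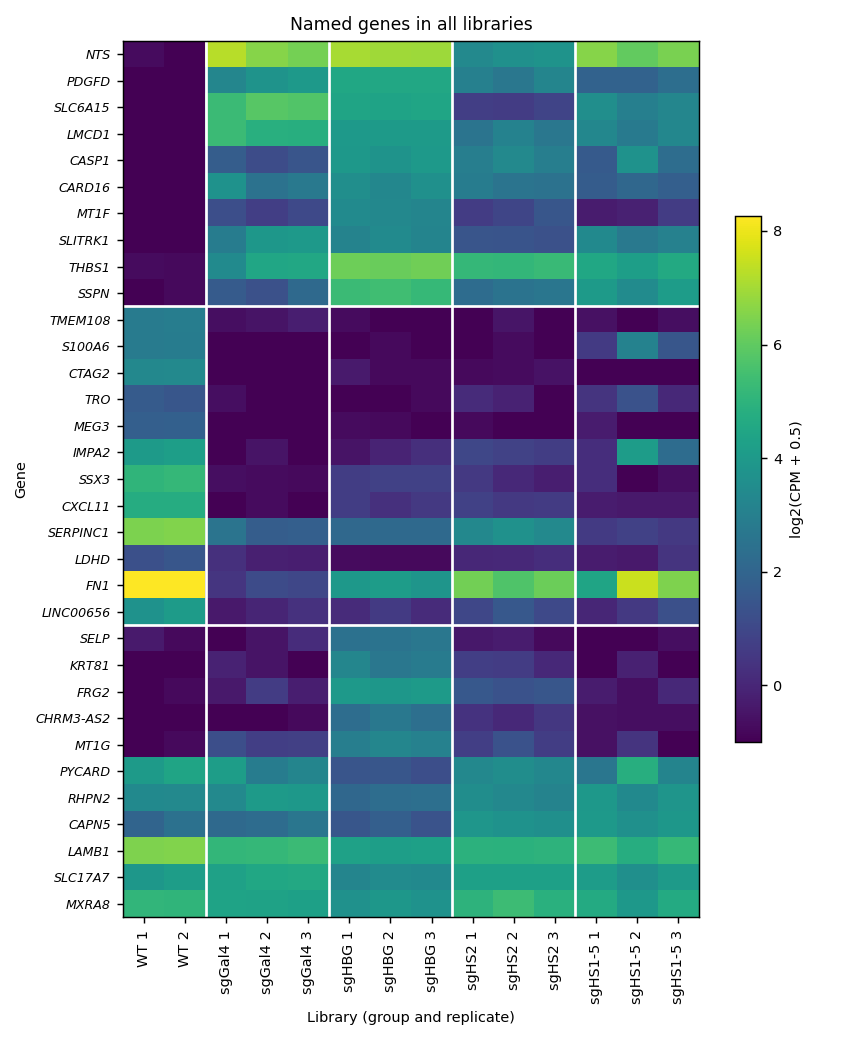
Level of named genes as log2(CPM + 0.5) in each of the 14 libraries, grouped by the largest increases, the largest decreases and the genes that separate sgHBG from every other group. The 2 WT columns and the 3 sgHBG columns each look alike within their group, and the third block of genes differs between the sgHBG columns and all others.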

How the data were processed

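Total RNA of each K562 population was sequenced as bulk mRNA libraries with a kit that does not mark strand. The authors deposited read counts per gene symbol as whole numbers, not normalized, and the counting tool is not given in the sources used here. They also deposited RPKM values (reads scaled to transcript length and library size), used for levels per length and as an alternative. TopHat, Cufflinks, DESeq and the build hg19 are named, without roles, in the submitters' processing notes.

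Counts of all 14 libraries entered 1 edgeR 4.0.16 fit (R 4.3.3) with a mean for each of 5 groups, TMM factors, filterByExpr (minimum count 10, minimum total 15) and quasi-likelihood tests. The fit had 9 residual degrees of freedom and a common dispersion of 0.0323, which the 2 WT libraries cannot set alone. P-values were adjusted by the Benjamini-Hochberg method over 14406 genes, with adjusted p under 0.05 as the threshold of a call. Depth was 9781552 to 11116665 counts a library, which limits precision at low counts. The sources name no molecular identifiers, so the exact 95% intervals of count ratios, and the floor of 3 counts over a group used against 0 counts, cover counting error only. Alternatives used DESeq2 1.42.0, limma 3.58.1 (voom on counts, limma-trend on log2(RPKM + 1) or log2(RPKM + 0.1)), other filters and left-out libraries. The script was tested on simulated data.

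The named genes are the 12 highest and 12 lowest called genes by log2 difference with a mean of at least 1 CPM and no overlap, up to 6 genes in each direction that separated sgHBG from the other 4 groups, up to 4 genes of lowest p per list, and all cluster genes of β-globin. A few genes that meet this rule are not reported here. Other list members were named for their role after their values were seen. The members and the 30 lists (629 distinct genes tested) were chosen with earlier results of these data known. RefSeq's gene table and promoters (GRCh38.p14) gave only neighbour order and printed promoters, since the files use another build.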

Additional observations from a re-analysis of the deposited data

Results flagged for a closer look

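The RPKM table held 539 gene names with no row of that name in the count table, of which 12 are older names of counted genes. Among the rest, 4 had at least 1 RPKM in each sgHBG library and under 0.1 RPKM in each WT library, and they took no part in the comparisons. The lowest of the 3 sgHBG values was 2.53 RPKM for GPR126, 2.13 RPKM for GPR125, 1.49 RPKM for EMR4P and 1.44 RPKM for CXorf30. The WT values were 0 and 0.00773 RPKM for GPR126 and at most 0.0743 RPKM for the other 3. SLC17A7 was singled out because the sgHBG and sgGal4 libraries moved in opposite directions from WT, and the tested log2 difference between sgHBG and sgGal4 was -1.15.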

How the results depend on the processing

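The number of calls changed with the libraries in the fit. With only the groups compared in each fit, 4897 genes were higher and 4787 lower than WT, 2099 differed from sgGal4 and 163 separated sgHBG from all 4 other groups. Without sgGal4 1, sgHS2 2, sgHS1-5 2 and sgHS1-5 3 the same counts were 5062, 4844, 7959 and 535. Against a minimum of 1.5-fold (glmTreat) they were 1199, 695, 834 and 26. In RPKM values with a pseudocount of 1 and no filter, 176 genes separated sgHBG from all other groups. Leaving out 1 of the 8 WT, sgHBG and sgGal4 libraries at a time (sgHS2 and sgHS1-5 libraries were not left out singly) gave 1568 to 3649 higher genes, 1328 to 3423 lower genes, 2064 to 4068 genes against sgGal4 and 53 to 193 genes apart from all other groups. HBG2 ranged from -0.63 to -0.53 on the log2 scale when 1 of these was left out, and passed the test at -0.57 with only the groups compared, at -0.58 without the 4 discordant libraries and at -0.57 without sgGal4 1. HBG1 ranged from -0.021 (without WT 1) through -0.0042 (without sgHBG 2) to 0.063, and was -0.21 in RPKM values with a pseudocount of 1, with or without the filter, and -0.22 with a pseudocount of 0.1. It passed the test under none of the alternatives run. The cause of these shifts was not tested.

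Replicate numbers in the labels are shared between groups, but deviations of same-numbered WT and sgHBG libraries correlated at 0.0024 and -0.042 over 10828 genes, so the numbers were not taken as pairs. With the replicate number as a block, 2300 genes were higher, 2016 lower, 3055 different from sgGal4 and 89 apart from all other groups, with HBG1 at 0.10 and HBG2 at -0.50 on the log2 scale.

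Other scalings, filters and tools (RLE factors, library sizes without globin genes, DESeq2, limma voom) gave 2430 to 2733 higher and 2230 to 2486 lower genes. RPKM values gave more lower than higher genes, with 2200 higher and 2520 lower at a pseudocount of 1, 2312 and 2466 at 0.1, and 2455 and 2750 with no filter. Of 60 counts of list members called, 34 moved by over 1.5 times with only the groups compared, 35 without the 4 discordant libraries, 33 against the 1.5-fold minimum and 20 without sgGal4 1. Only 2 WT libraries stand behind each difference from WT, and genes with 0 or few WT counts have only a lower bound or a wide interval.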

Other observations

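Some of the genes that differed from WT lay side by side. With tested genes ordered along the chromosomes by RefSeq's GRCh38 table, 14182 could be placed, and 12 runs of at least 6 neighbours were all called higher and 2 runs all called lower. The run length was chosen after the data were seen, and the runs are given as a description with no test. One run of 8 higher genes held metallothioneins, which bind zinc and copper, from MT4 to NUP93. In it MT2A went from a mean of 2.48 ± 0.103 CPM (SD, n = 2) in WT to 74.2 ± 1.07 CPM (SD, n = 3) in sgHBG, and MT1X from 0.979 ± 0.161 to 18.9 ± 0.705 CPM. A run of 7 genes held the guanylate-binding proteins, with GBP5 at 3.23 ± 0.191 CPM in WT and 83.7 ± 3.86 CPM in sgHBG. A run of 6 genes held receptors of the SLAM family, which act between blood cells, where CD48 was at 0.374 ± 0.0144 CPM in WT and 31.3 ± 2.93 CPM in sgHBG, and CD84 at 15.9 ± 1.74 and 115 ± 6.09 CPM. A run of 6 genes began with PDGFD and held the inflammatory caspases CASP4, CASP5 and CASP1, and CASP4 was at 0.192 ± 0.272 CPM in WT and 56.1 ± 1.97 CPM in sgHBG. Paralogs within these runs are similar in sequence and may share reads.

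A run of 7 higher genes held the zinc finger genes from ZNF850 to ZNF420, and a run of 9 held SLITRK1, SLITRK6 and SLITRK5 together with MIR17HG. SLITRK6 had 0 counts in WT and a mean of 7.72 ± 1.43 CPM in sgHBG. On the lower side, a run of 9 genes from HSPA4L to C4orf33 had log2 differences of -1.86 to -0.38. There C4orf33 fell from 32.5 ± 3.11 CPM to 8.99 ± 1.15 CPM and PLK4, a kinase of centriole duplication, from 50.6 ± 1.03 to 24.8 ± 0.495 CPM. Copy number was not measured in these files, and its part in the runs was not tested.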
